A study of Mus musculus with 36 samples.

Results

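The genes described here encode 9 enzymes or enzyme subunits of the mitochondrial tricarboxylic acid (TCA) cycle: Cs, Idh3a, Idh3b, Idh3g, Ogdh, Sucla2, Suclg1, Fh1 and Mdh2. They were chosen by symbol from the liver expression tables, in which each of the 9 was listed on 1 row, out of 24346 symbols in all. All 9 were among the 13215 genes tested, those that averaged 0.1 FPKM or more across the 36 libraries. FPKM counts sequenced fragments relative to transcript length and library size, so that levels of different genes can be set side by side.

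Livers came from wild-type male C57BL/6JRj mice aged 16 weeks, housed 5 per cage with free access to chow under 12 h of light and 12 h of dark. In the intermittent hypoxia (IH) group, the inspired oxygen fraction was lowered to 5% and brought back to 21% in 60 cycles per h, each day between zeitgeber time 0 (ZT0, lights on) and ZT8, over 4 weeks, and the control group received cycles of air alone on the same schedule. At each of 6 time points 4 h apart, from ZT0 to ZT20, 3 mice per condition were sampled, and each of the 36 polyadenylated RNA libraries came from 1 mouse. The deposited values hold no counts, so the depth behind each FPKM is unknown.

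The TCA cycle oxidises acetyl-CoA to carbon dioxide in the mitochondrial matrix and passes the electrons to the respiratory chain as NADH and FADH2. Citrate synthase (Cs) joins acetyl-CoA to oxaloacetate, NAD-dependent isocitrate dehydrogenase (Idh3a, Idh3b, Idh3g) and 2-oxoglutarate dehydrogenase (Ogdh) release carbon dioxide, succinate-CoA ligase (Sucla2, Suclg1) forms a nucleoside triphosphate, and fumarase (Fh1) and malate dehydrogenase (Mdh2) restore oxaloacetate. In hepatocytes the cycle also exports citrate for fat synthesis and malate for gluconeogenesis.

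The libraries had the expression of liver. The 6 hepatocyte markers, among them albumin, summed to between 39111 and 65432 FPKM per library, and the 3 skeletal muscle markers to at most 0.0446 FPKM. One library stood apart, control ZT12 replicate 2. Its FPKM summed to 808274, against 561964 to 626371 in the other 35, and its 5 macrophage markers summed to 127 FPKM, against 13.3 to 43.0 in the others. It also had the highest sums of hepatocyte, erythroid and pancreas markers. Because these are bulk samples, fewer cells of a type and less RNA per cell cannot be told apart.

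In the mm10 mouse genome (GRCm38, GENCODE vM21), Cs lies on chr10:128337734-128362479 on the plus strand and Mdh2 on chr5:135778480-135790398 on the plus strand. The 3 subunit genes of isocitrate dehydrogenase lie apart, Idh3a on chr9:54586334-54604661 (plus), Idh3b on chr2:130279309-130284547 (minus) and Idh3g on chrX:73778963-73786897 (minus). Ogdh lies on chr11:6291633-6356642, Sucla2 on chr14:73525319-73596142 and Suclg1 on chr6:73248382-73276911, all on the plus strand, and Fh1 on chr1:175600374-175625635 on the minus strand. Fh1 shares 5255 bases with Kmo, a gene on the other strand which encodes kynurenine monooxygenase of tryptophan breakdown, with 0 bases exonic in both genes. Idh3b shares 5 exonic bases with Nop56, also on the other strand. The libraries were made with a strand-marking kit, and whether strand was used when fragments were assigned to genes is not given in the sources used here.

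Immunoblots of CREB1 were part of the study and are not analysed here. The bases just before the transcription start of Cs, the member with a fitted maximum far from the others and the only one called between IH and control over all time points, are shown with a short site from Ogdh and Mdh2. Sequences are from RefSeq (GRCm38.p6), plus strand, in lower case. In Cs, chr10:128337577-128337726, the 150 bases before the start, capitals mark matches to the SP1 motif GGGCGG or its reverse complement and to the NF-Y motif CCAAT. In Ogdh, chr11:6291535-6291564, and Mdh2, chr5:135778511-135778540, capitals mark the cAMP response element (CRE) TGACGTCA, the element bound by CREB1. The site of Mdh2 lies before the RefSeq start but inside the gene as GENCODE annotates it, since GENCODE places the start 169 bases further upstream.
Cs: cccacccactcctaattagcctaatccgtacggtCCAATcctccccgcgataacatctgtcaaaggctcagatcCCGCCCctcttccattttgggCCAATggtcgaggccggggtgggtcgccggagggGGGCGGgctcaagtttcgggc
Ogdh: acccaattctgTGACGTCAcgtcacgccca
Mdh2: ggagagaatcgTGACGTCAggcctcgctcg

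Promoter sequence was found for 8 of the 9 members, in 13 entries of which 6 belong to Ogdh, and the 250 bases before each RefSeq start were searched on both strands. The full CRE was found in 4 of the 13 entries, all of Ogdh or Mdh2, and in 1.55% of all 32851 promoter entries of the same length. Its core TGACG, which the full CRE contains, was found in 9 of the 13, from 5 genes (Idh3b, Idh3g, Ogdh, Sucla2 and Mdh2), and in 17.8% of all entries. Entries of 1 gene are not independent. Cs had neither in this window. It had 2 matches each to SP1 (32.7% of all entries) and NF-Y (33.8%). The hypoxia response core ACGTG was found in Idh3g and Ogdh (16.6% of all entries), and in Ogdh some of its matches lay within an E-box, CACGTG (6.02% of all entries). The NRF1 motif GCGCATGC occurred in Ogdh alone among the 8 (2.26% of all entries), the YY1 motif AAGATGGC in Idh3g alone (1.56%), and the GABPA motif CCGGAAGT (2.88%) and the ERR motif AAGGTCA (4.08%) in none. These are matches of letters, and binding was not measured here.

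The 9 genes were expressed in every library, at levels that spanned about an order of magnitude. Mdh2 had the highest mean level over the 36 libraries, 136 FPKM (SD 14.7), followed by Suclg1 at 124 (SD 14.0), Idh3b at 105 (SD 11.0) and Fh1 at 99.1 (SD 16.3). Sucla2 averaged 52.4 FPKM (SD 3.61), Cs 43.4 (SD 7.70), Idh3g 40.6 (SD 4.23) and Ogdh 32.2 (SD 3.48), and Idh3a was the lowest at 12.8 (SD 2.22). In this order, Fh1 was above Sucla2, Idh3g above Ogdh and Ogdh above Idh3a in 36 of 36 libraries. Mdh2 was above Suclg1 in 27, Idh3b above Fh1 in 24, and Cs above Idh3g in 24 of the 36, so these neighbours did not separate beyond their spread. Suclg1 was above Idh3b in 35 and Sucla2 above Cs in 30.

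The subunits of 1 enzyme were not at equal levels. Idh3a encodes the catalytic subunit of isocitrate dehydrogenase, and Idh3b and Idh3g encode its other subunits. Within a library, Idh3b was 8.46 times Idh3a on average in FPKM (SD 1.80, range 6.50 to 16.7, n = 36) and Idh3g was 3.27 times Idh3a (SD 0.715). The highest Idh3b to Idh3a ratio, 16.7, came from a control ZT4 library in which Idh3a was at 6.16 FPKM, its lowest value in the series. Suclg1, the subunit shared by both succinate-CoA ligases, was 2.37 times Sucla2 (SD 0.178), the ATP-forming partner. Suclg2, the GTP-forming partner, which is not among the 9, was 1.39 times Sucla2 (SD 0.153).

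**Figure D1:**
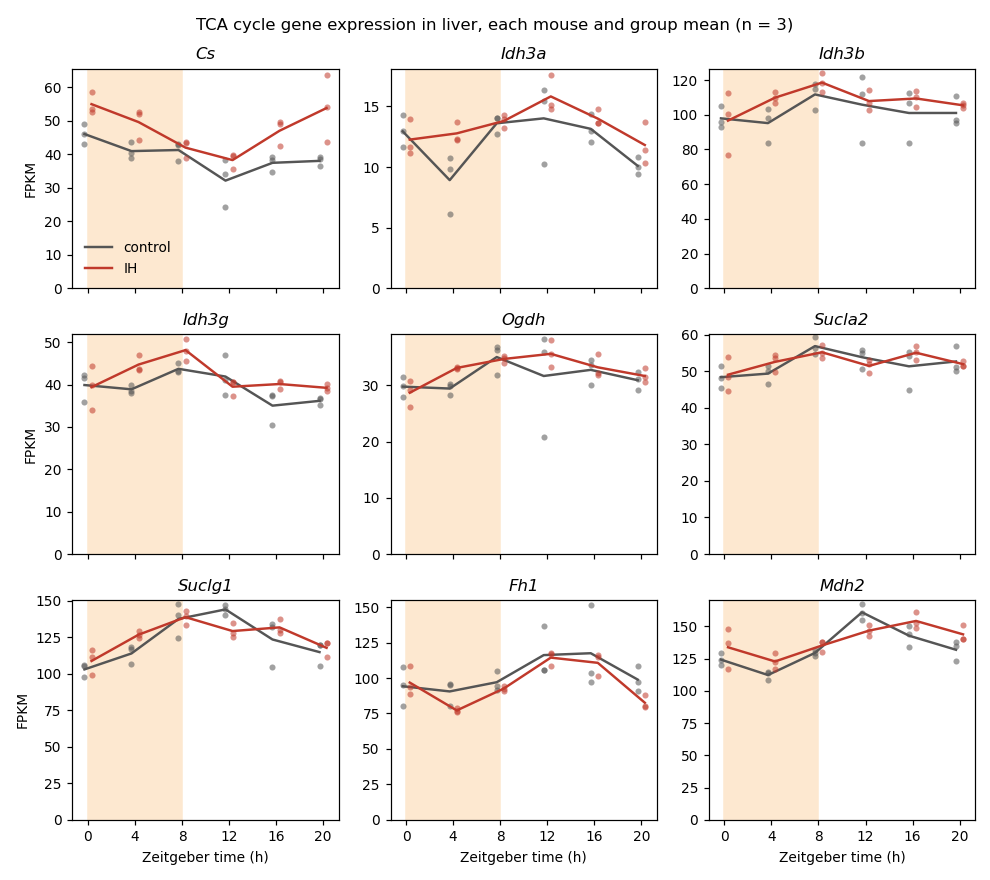
FPKM (linear axis from 0) of the 9 genes against zeitgeber time, with 1 point per mouse, lines through the means of 3 mice, control in grey and IH in red, and shading for ZT0 to ZT8, when the IH mice were exposed. Cs had its lowest means at ZT12 in both conditions, while Mdh2, Suclg1 and Fh1 were higher at ZT12 than at ZT4 in control.

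The first question was whether these genes oscillate over the day, and whether they do so in both conditions. In control livers, 2 of the 9 had a 24-h rhythm, Mdh2 and Suclg1, both with their maxima around the end of the light phase. In IH livers 7 of the 9 did, all but Idh3b and Sucla2. A gene was called rhythmic when a 24-h cosine fitted to log2(FPKM + 1) with limma gave a nominal P of 0.01 or less. By this rule 20% of all tested genes passed in control and 39.9% in IH, so the 2 of 9 were near the background and the 7 of 9 above it.

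The difference between these counts is not a test of a change in rhythm. That test, the interaction of condition with the cosine over all 36 libraries, called none of the members, and 0% of the 13215 genes at a Benjamini-Hochberg adjusted p under 0.05 in limma. At an unadjusted p under 0.05 it gave 649 genes, 4.91% of those tested, and 0 members. An F test with the 6 time points as separate levels, instead of a cosine, called 18 genes at an adjusted p under 0.05, again with 0 members. In the cosine test the smallest adjusted p among the members was 0.92, for Cs, Suclg1 and Mdh2. In the F test it was 0.469, for Mdh2.

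The number of rhythmic members in control also depended on 1 library and on scaling. Without control ZT12 replicate 2, 4 members were called (Cs, Ogdh, Suclg1 and Mdh2), against 27.1% of all genes. With median of ratios scaling, which sets the typical gene to the same level in every library, 6 were called (Cs, Idh3b, Idh3g, Sucla2, Suclg1 and Mdh2), against 22.1% of all genes. The 7 calls in IH were the same genes under that scaling. When 1 fit with a shared spread served both conditions, 3 members were called in control (Cs, Suclg1 and Mdh2). In IH that fit called 5 members (Cs, Idh3g, Suclg1, Fh1 and Mdh2). Of all tested genes it called 3762 in control and 4166 in IH. The median log2 amplitude of the 9 members, in the separate fits, was 0.19 in control and 0.14 in IH.

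Mdh2, which makes oxaloacetate from malate in the last step of the cycle, was called rhythmic in both conditions. In control it measured 114, 114 and 109 FPKM at ZT4 and 167, 160 and 155 FPKM at ZT12, with no overlap between these time points. In IH it measured 117, 122 and 129 FPKM at ZT4, 147, 151 and 143 FPKM at ZT12 and 149, 153 and 161 FPKM at ZT16. The 3 lowest and the 3 highest control libraries were thus those of ZT4 and ZT12, and in IH ZT16 gave the highest mean. The cosine had its maximum at ZT14.1 in control (log2 amplitude 0.21, P = 1.8e-04, n = 18 libraries) and at ZT15.6 in IH (log2 amplitude 0.15, P = 3.9e-04). On the linear scale these amplitudes were 14.5% and 10.1% of the gene's mean.

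Suclg1 peaked earlier. In control it measured 106, 98.1 and 105 FPKM at ZT0, 125, 148 and 140 FPKM at ZT8 and 147, 145 and 140 FPKM at ZT12. In IH it measured 116, 99.0 and 111 FPKM at ZT0, 143, 140 and 133 FPKM at ZT8 and 128, 125 and 135 FPKM at ZT12. Its ZT0 libraries lay below its ZT8 and ZT12 libraries in both conditions. The fitted maximum was at ZT11.3 in control (log2 amplitude 0.23, P = 2.0e-04, n = 18) and ZT10.6 in IH (log2 amplitude 0.14, P = 9.7e-04).

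Cs, at the entry of the cycle, had its lowest means at ZT12 in both conditions. In control its means were 46.0 ± 2.92 FPKM (SD, n = 3) at ZT0 and 32.1 ± 7.22 at ZT12, and in IH they were 54.9 ± 3.23 at ZT0 and 38.2 ± 2.23 at ZT12. The lowest Cs value of the series, 24.1 FPKM, came from control ZT12 replicate 2, and the other 2 control ZT12 libraries gave 38.1 and 34.1 FPKM. All 3 ZT0 libraries were above all 3 ZT12 libraries in each condition. The cosine peaked at ZT22.8 in IH (log2 amplitude 0.25, P = 1.0e-04, n = 18), and at ZT1.41 in control (log2 amplitude 0.19), where P = 0.0134 missed the threshold. The Cs amplitude in IH was the largest of the 9 with the deposited values, while after median of ratios scaling it was 0.23 and that of Fh1 was 0.27. Without control ZT12 replicate 2 the control amplitude of Cs was 0.13 and P was 0.0099 (n = 17).

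Fh1, which hydrates fumarate to malate, was called in IH (maximum at ZT13.8, log2 amplitude 0.22, P = 0.0024, n = 18). Its control cosine had a like phase and size (ZT14.3, 0.19) with P = 0.0257 (n = 18). In control the replicates spread widely, with 97.4, 104 and 151 FPKM at ZT16, while the IH libraries at ZT4 gave 76.5, 76.1 and 78.9 FPKM. Kmo, the gene that overlaps Fh1, averaged 101 FPKM over the 36 libraries and was lowest at ZT12 in both conditions. Across the libraries Fh1 and Kmo had r = -0.03 on log2(FPKM + 1), and r = 0.27 after median of ratios scaling, so the sign depended on scaling.

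Idh3a was called in IH (maximum at ZT11.4, log2 amplitude 0.17, P = 0.00202, n = 18) and not in control (ZT12.8, 0.19, P = 0.141), although the fitted control amplitude was slightly the larger. Its control libraries gave 9.81, 6.16 and 10.8 FPKM at ZT4, 14.0, 12.8 and 14.1 FPKM at ZT8, 16.3, 10.3 and 15.4 FPKM at ZT12 and 9.43, 10.8 and 10.0 FPKM at ZT20. Those libraries had low values at ZT4 and ZT20, and the low one at ZT12 was control ZT12 replicate 2. The F test with separate time points, which assumes no cosine shape, gave P = 0.0155 in control and 0.0136 in IH (n = 18 each), past the threshold in neither.

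The remaining members had smaller amplitudes. Ogdh, the first subunit of the 2-oxoglutarate dehydrogenase complex, was called in IH (ZT10.9, log2 amplitude 0.13, P = 0.00113, n = 18). In control its libraries at ZT12 measured 38.2, 20.8 and 36.0 FPKM, the middle value from control ZT12 replicate 2, and the cosine had P = 0.597 (n = 18). Without that library the control amplitude was 0.15, with its maximum at ZT11.8 and P = 0.00151 (n = 17). Among the 8 genes other than Cs, Idh3g had the earliest fitted maximum, at ZT7.26 in control (P = 0.0305, n = 18) and ZT6.77 in IH (P = 0.0089), with equal log2 amplitudes of 0.13. Its IH call lay close to the threshold, and was lost in 12 of the 18 fits that left out 1 IH library. Idh3b (P = 0.47 in control, 0.097 in IH, n = 18 each) and Sucla2 (P = 0.179 and 0.267) were not called in either condition.

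**Figure D2:**
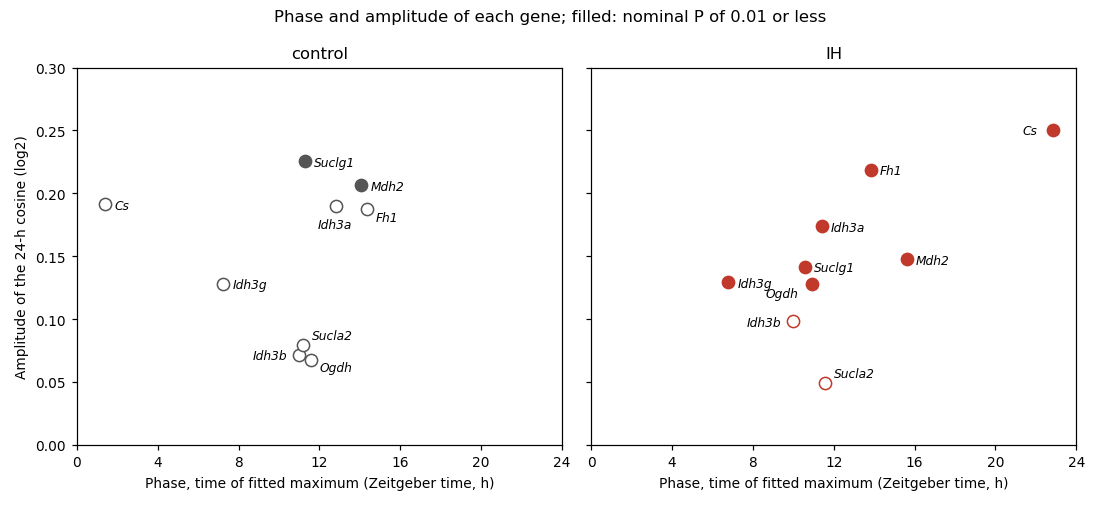
Time of the fitted maximum (zeitgeber time, h) and log2 amplitude of the 24-h cosine of each gene, control left and IH right, filled where the nominal P was 0.01 or less. Cs lies apart at ZT1.41 in control and ZT22.8 in IH, and the other 8 genes lie between ZT6.77 and ZT15.6.

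Apart from Cs, the fitted maxima of the 8 genes lay between ZT7.26 and ZT14.3 in control and between ZT6.77 and ZT15.6 in IH. The maxima in IH came earlier than in control for 7 of the 9 genes, by 0.481 h for Idh3g to 2.58 h for Cs, and later for Sucla2 and Mdh2, by 0.393 and 1.56 h. Several of these phases belong to cosines that passed no threshold, and no member passed the test of the difference.

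Cs can also be set against Mdh2 within each library, where any factor that scales the whole library cancels. The ratio of Cs to Mdh2 FPKM was 0.371 ± 0.0375 (SD, n = 3) at ZT0 and 0.199 ± 0.0424 at ZT12 in control, and 0.414 ± 0.0458 at ZT0 and 0.260 ± 0.00971 at ZT12 in IH. The ZT0 and ZT12 libraries did not overlap in either condition. At ZT12 the control ratios ran from 0.151 to 0.228 and the IH ratios from 0.250 to 0.269, and at ZT8 the means of both conditions were close, 0.319 ± 0.0239 in control and 0.310 ± 0.00874 in IH. The lowest control ratio at ZT12, 0.151, came from control ZT12 replicate 2, and replicates 1 and 3 gave 0.228 and 0.220. Mdh2 itself had higher means at ZT12 than at ZT0, 161 against 124 FPKM in control and 147 against 134 in IH. The fall of the ratio thus holds changes of both genes. These ratios are given as a description, without a test.

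**Figure D3:**
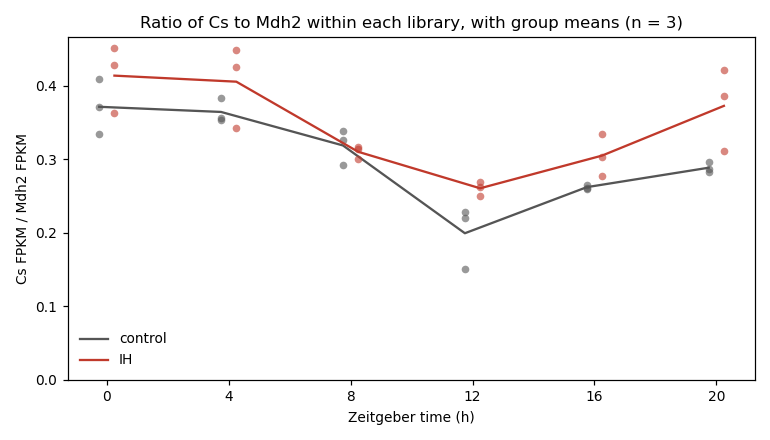
Ratio of Cs FPKM to Mdh2 FPKM within each library (axis from 0) against zeitgeber time, with 1 point per mouse and lines through the means of 3 mice, control in grey and IH in red. Both lines fall from ZT0 to a lowest mean at ZT12, 0.199 in control and 0.260 in IH. The lowest point, 0.151, is control ZT12 replicate 2.

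The second question was whether IH changed the level of these genes. Cs was higher in IH. Over all time points, with the time point as a factor, its log2 difference was 0.27 (SE 0.05, 95% interval 0.16 to 0.37, a 1.20-fold difference), with an adjusted p of 0.0109 in limma. The other 8 members did not pass the test. Of all tested genes, 0.303% were called higher in IH and 0.053% lower, so that 1 of 9 members called higher stands against a small background. Of the genes called, 85.1% were higher in IH with the deposited values and 66.7% after median of ratios scaling. Without control ZT12 replicate 2, 157 genes were called, and Cs was again the only member among them.

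Cs averaged 39.3 FPKM in the 18 control libraries and 47.6 FPKM in the 18 IH libraries, and its IH mean was the higher at 6 of 6 time points. At ZT0 the control libraries gave 43.1, 49.0 and 45.9 FPKM and the IH libraries 58.6, 52.6 and 53.5 FPKM. At ZT4 they gave 43.6, 40.4 and 38.7 against 52.5, 52.0 and 44.2 FPKM. At ZT16 they gave 38.2, 39.2 and 34.8 against 49.7, 42.4 and 48.8 FPKM, and at ZT20 38.5, 39.0 and 36.4 against 63.5, 43.6 and 54.1 FPKM. At these 4 time points every IH library was above every control library, and at ZT8 and ZT12 the conditions overlapped. Genes with IH wholly above control made up 4.59% of the tested genes at ZT0, 26.7% at ZT4, 10% at ZT16 and 11.8% at ZT20.

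The Cs difference stayed between 0.24 and 0.29 in the 36 fits that each left out 1 library, and was 0.22 after median of ratios scaling, past the threshold in each. At single time points it ranged from 0.02 (SE 0.12) at ZT8 to 0.47 (SE 0.12) at ZT20, and passed at none after adjustment. No macrophage, stellate, cholangiocyte, lymphocyte or erythroid marker was called between IH and control over all time points, and 1 of the 4 endothelial markers was. The endothelial markers summed to 5.96 FPKM in control ZT12 replicate 2, to 8.16 to 11.2 FPKM in the other 17 control libraries and to 9.34 to 13.3 FPKM in the IH libraries, and their part in the Cs difference was not tested.

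For the other members the intervals bound the size of a shift averaged over all time points. They do not bound the shift at a single time point. Sucla2 differed by 0.01 (95% interval -0.05 to 0.08) and Suclg1 by 0.04 (-0.04 to 0.11). Mdh2 differed by 0.07 (0.00 to 0.13, adjusted p = 0.457), Ogdh by 0.06 (-0.04 to 0.16), Idh3b by 0.08 (-0.02 to 0.18) and Idh3g by 0.09 (0.01 to 0.17, adjusted p = 0.37). Idh3a had the second largest estimate, 0.15 (0.02 to 0.28, adjusted p = 0.36). With the deposited values Fh1 alone had an estimate below 0, -0.10 (-0.20 to 0.01, adjusted p = 0.512). After median of ratios scaling Sucla2 (-0.03) and Suclg1 (-0.01) were below 0 as well as Fh1 (-0.14). The median over the 9 was 0.07 with the deposited values and 0.02 after that scaling, against 0.03 and 0.00 over all tested genes.

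**Figure D4:**
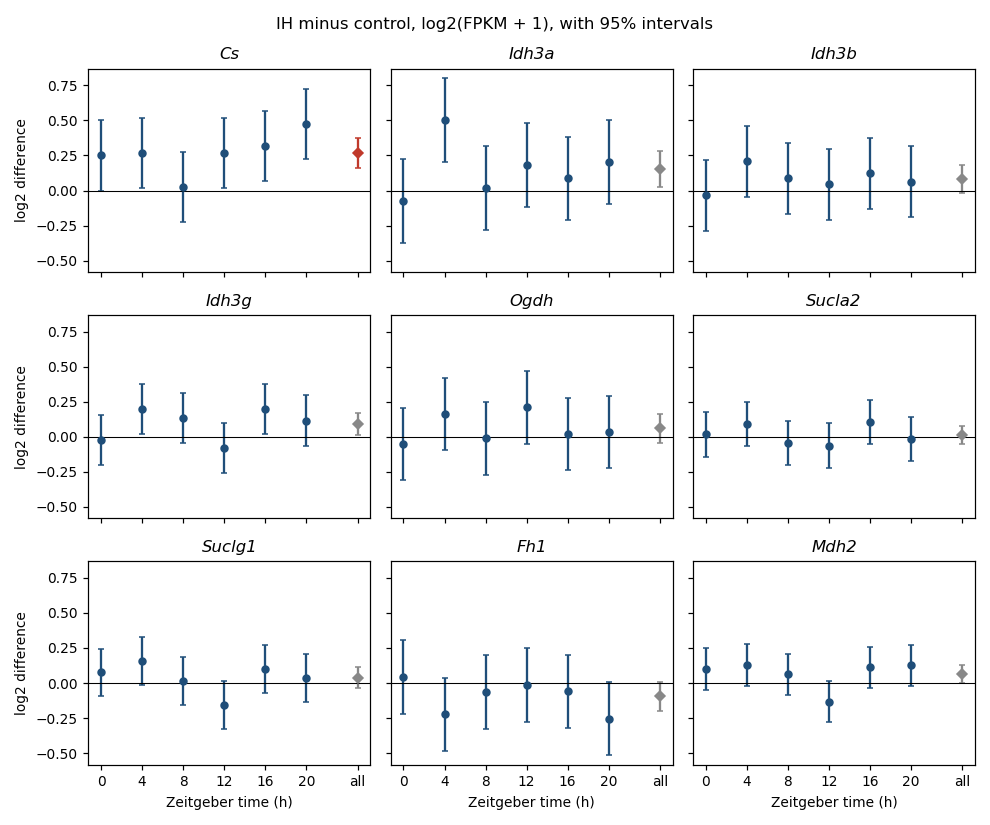
IH minus control on log2(FPKM + 1) for each gene at the 6 zeitgeber times (blue points) and over all time points (diamonds, red where the adjusted p was under 0.05), with 95% intervals. Only the diamond of Cs is red, at 0.27, and the ZT4 point of Idh3a, at 0.50, is the highest single point.

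At single time points none of the members was called. Of all genes, 0% were called at ZT0, 1.16% at ZT4, 0.00757% at ZT8, 0.772% at ZT12, 0.00757% at ZT16 and 0% at ZT20. At ZT12 35.3% of the calls were higher in IH with the deposited values and 47.5% after median of ratios scaling. Among the members, unadjusted p under 0.05 was reached by 3 at ZT4, 1 at ZT12, 2 at ZT16 and 1 at ZT20. The shares of all tested genes were 16.4% at ZT4, 24.6% at ZT12, 3.3% at ZT16 and 4.74% at ZT20. With the deposited values the largest log2 difference was that of Idh3a at ZT4, in the middle of the exposure. There control libraries gave 9.81, 6.16 and 10.8 FPKM and IH libraries 12.3, 12.3 and 13.7 FPKM. Its log2 difference was 0.50 (SE 0.15, adjusted p = 0.0751), and 0.29 without the lowest control library. After median of ratios scaling it was 0.40 (SE 0.13, adjusted p = 0.127 in limma). Cs at ZT20 then had the larger difference, 0.42 (SE 0.09, adjusted p = 0.191 in limma). Without control ZT12 replicate 2, which enters this comparison only through the estimate of the spread, Idh3a at ZT4 passed (0.50, SE 0.13, adjusted p = 0.0205), with 799 of all genes called at ZT4 and 0 at ZT12.

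ZT4 was also the time point at which most members separated without passing the test. Every IH library was above every control library for 7 of the 9 genes (Cs, Idh3a, Idh3b, Idh3g, Ogdh, Suclg1 and Mdh2), against 26.7% of all tested genes. For Fh1 every IH library was below, with 76.5, 76.1 and 78.9 FPKM while control ran from 80.6 to 96.1 FPKM, against 7.79% of all genes. The direction over the whole transcriptome at this time point depended on scaling: 76.5% of the genes called were higher in IH with the deposited values and 46.8% after median of ratios scaling. The median difference of all genes at ZT4 was 0.07 with the deposited values and 0.00 after scaling, and that of the 9 members was 0.16 and 0.06.

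At other time points fewer members separated, and ZT20 held the most of them. There Cs, Idh3g and Mdh2 were wholly above control (11.8% of all genes) and Fh1 was wholly below. Idh3g was wholly above control at ZT8 (11% of all genes), with 50.8, 47.9 and 45.7 FPKM against 42.9, 43.2 and 45.1 FPKM. At ZT16 Idh3g and Cs were wholly above control (10% of all genes), and at ZT0 Cs alone (4.59%). Suclg1 and Mdh2 were wholly below control at ZT12 (6.74% of all genes), where IH and control gave 128, 125 and 135 against 147, 145 and 140 FPKM for Suclg1. Fh1 was wholly below control at ZT20 (4.18% of all genes), with 80.3, 79.4 and 88.1 against 97.1, 90.8 and 109 FPKM.

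The third comparison was between the middle of the rest phase, ZT4, and the onset of the active phase, ZT12. In control livers Mdh2, Idh3a, Suclg1 and Fh1 rose from ZT4 to ZT12 and Cs fell, 5 of the 9 members. In IH livers Fh1 and Mdh2 rose and Cs fell, 3 of the 9. Of all genes, 13.6% were called higher and 16.7% lower at ZT12 in control, and 7.98% higher and 16.8% lower in IH. In IH 32.2% of the calls were thus higher, and 51.7% after median of ratios scaling, where Ogdh and Idh3a were called higher as well. In control the same scaling called Sucla2 higher (0.20, adjusted p = 0.0358) and lost Fh1 (0.43, adjusted p = 0.0568). The test of whether the change from ZT4 to ZT12 differed between the conditions called none of the members, and 2.01% of all genes higher and 3.87% lower in IH.

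In control, Idh3a rose by 0.61 on the log2 scale (SE 0.15, adjusted p = 0.00252) and Mdh2 by 0.52 (SE 0.07, adjusted p = 8.2e-06), which is 1.43-fold. Suclg1 rose by 0.34 (SE 0.08, adjusted p = 0.00297) and Fh1 by 0.35 (SE 0.13, adjusted p = 0.0382), while Cs fell by 0.36 (SE 0.12, adjusted p = 0.0256). Without control ZT12 replicate 2 the changes of Cs (-0.18, adjusted p = 0.24) and Fh1 (0.23, adjusted p = 0.203) in control did not pass, while Ogdh did (0.32, adjusted p = 0.00237), so that 4 members were called, Idh3a, Ogdh, Suclg1 and Mdh2, all higher. In IH, Fh1 rose by 0.56 (SE 0.13, adjusted p = 0.00193), Mdh2 by 0.26 (SE 0.07, adjusted p = 0.01) and Cs fell by 0.36 (SE 0.12, adjusted p = 0.0303). Kmo, which overlaps Fh1, moved the other way, with -0.60 in control (adjusted p = 1.4e-04) and -0.25 in IH (adjusted p = 0.0772).

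The change of Cs in IH minus that in control was 0.00 (95% interval -0.36 to 0.36), and -0.19 without control ZT12 replicate 2. For Suclg1 the change was smaller in IH by 0.31 (interval -0.55 to -0.07, adjusted p = 0.107), for Mdh2 by 0.26 (-0.47 to -0.05, adjusted p = 0.118) and for Idh3g by 0.28 (-0.53 to -0.02, adjusted p = 0.175). These 3 had unadjusted p under 0.05 and did not pass the adjustment. In the same test 23.4% of all tested genes had unadjusted p under 0.05. Among all called genes in this test, 34.2% were higher with the deposited values and 58.2% after median of ratios scaling.

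The calls in control rested on a spread estimated from all 12 groups. With only the 6 control libraries of ZT4 and ZT12, 0 members and 252 genes were called. Leaving out control ZT4 replicate 2, which held the low Idh3a value, left 3 members called (Idh3a, Suclg1 and Mdh2), and leaving out IH ZT4 replicate 1 left Fh1 alone called in IH.

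**Figure D5:**
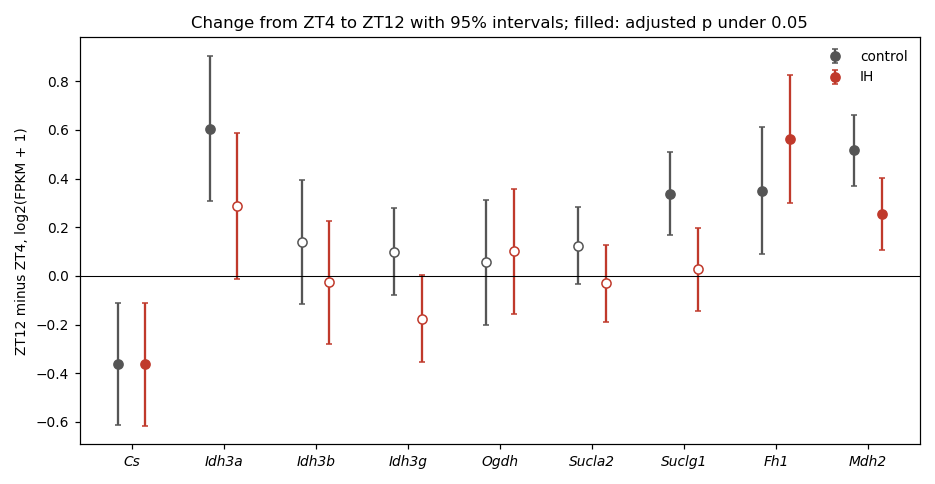
Change from ZT4 to ZT12 on log2(FPKM + 1) for each gene in control (grey) and IH (red), with 95% intervals and filled points where the adjusted p was under 0.05. Cs lies at -0.36 in both conditions, and Suclg1 at 0.34 in control and 0.03 in IH.

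Other genes of the pathway were counted for comparison. Of 8 further TCA cycle genes (Dlst, Dld, Suclg2, Sdha, Sdhb, Sdhc, Sdhd and Idh2), 1 had a rhythm in control and none in IH. The shares of all genes were 20% in control and 39.9% in IH. Sdhb, the iron-sulfur subunit of succinate dehydrogenase, was called in control (maximum at ZT11.9, log2 amplitude 0.21, P = 0.00307, n = 18). In IH its amplitude was 0.18, with P = 0.0109 (n = 18), which just missed the threshold, and after median of ratios scaling it was called in both conditions. None differed between IH and control at any time point or over all of them. From ZT4 to ZT12 in control 3 of them rose (Sdhb by 0.52, Idh2 by 0.45 and Sdhd by 0.32), against 13.6% of all genes. In IH none passed the test, while 7.98% of all genes were called higher and 16.8% lower. The test of whether this change differed between the conditions called none of the 8.

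Of 23 genes that feed or drain the cycle, 22 were tested. Rhythms were called for 3 in control (13.6%, against 20% of all genes) and 7 in IH (31.8%, against 39.9%). Pdk4, the kinase that inactivates pyruvate dehydrogenase, led in both, with maxima at ZT21.8 in control and ZT21.1 in IH. Over all time points 2 were higher in IH, against 0.303% of all genes. Acly, which splits exported citrate back to acetyl-CoA, was higher by 0.58 (SE 0.09, adjusted p = 0.00182) and Pdhb, a subunit of pyruvate dehydrogenase, by 0.22 (SE 0.04, adjusted p = 0.00381). Both calls held after median of ratios scaling, at 0.53 and 0.17. Pdhb was also called higher in IH at ZT4, by 0.41 (SE 0.09, adjusted p = 0.0218), a call that was lost after that scaling (0.31). These 2 enzymes act next to Cs, Pdhb in making its acetyl-CoA and Acly in using its citrate. In the test of whether the change from ZT4 to ZT12 differed, 2 of the 22 were called, both lower in IH, against 3.87% of all genes. Slc25a11, the mitochondrial carrier of oxoglutarate and malate, rose by 0.56 in control, and its change was smaller in IH by 0.69 (SE 0.16, adjusted p = 0.0137). Slc25a1, the carrier that exports citrate, rose by 0.30 in control, and its change was smaller in IH by 0.57 (SE 0.14, adjusted p = 0.0226).

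Respiratory complex I, whose 38 Nduf genes form the NADH-oxidising enzyme downstream of the cycle, was set beside the members for the change from ZT4 to ZT12. In control 34 of the 38 rose and none fell, with a median log2 change of 0.61 against 0.14 for the 9 members, and in IH 1 fell and none rose, with a median of 0.06. Of all genes, 13.6% were called higher and 16.7% lower in control, and 7.98% higher and 16.8% lower in IH. The test of the difference between the conditions called 10 of the 38, all lower in IH, with the deposited values, and 1 after median of ratios scaling. Of all 13215 tested genes it called 777 with the deposited values and 775 after scaling. The median difference was -0.52 with the deposited values and -0.49 after scaling. Without control ZT12 replicate 2 the test called 9 of the 38 and 1372 of all genes, and the median difference of complex I was -0.33. The medians of the change in control were then 0.40 for complex I and 0.30 for the members. The difference between complex I and the members was not tested.

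Across the 36 libraries the members followed each other unequally. The correlation of each gene with the mean of the other 8, on log2(FPKM + 1), lay between 0.50 and 0.74 for Idh3a, Idh3b, Idh3g, Ogdh, Sucla2, Suclg1 and Mdh2. It was -0.13 for Cs and -0.22 for Fh1. Under median of ratios scaling it was -0.48 for Cs and 0.36 for Fh1, so the sign for Fh1 depended on scaling. The libraries share time points and library-wide shifts, and these values are a description. Outside the 9, the genes most like their mean with the deposited values included Atp5a1 (r = 0.89), a subunit of ATP synthase, Ak4 (0.86), Cyc1 of respiratory complex III (0.86) and Vdac1, the outer membrane channel of mitochondria (0.86). After median of ratios scaling the first 5 were Glrx5 (0.92), Timm8a1 (0.90), Atp5a1 (0.90), Cyc1 (0.89) and Ndufa10 (0.89), so Ak4 and Vdac1 were not among them.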

How the data were processed

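Polyadenylated liver RNA of 36 mice was sequenced in paired-end reads of 100 bases. The authors deposited FPKM values per gene symbol and library, 1 table per condition. The submitters' processing notes name TopHat2 2.1.1, Cufflinks 2.2.1 and mm10, and scaling between libraries is not given in the sources used here. Both tables have the same column names, so the deposited name of a table gave its condition, and time point and replicate from the columns and labels. Each table held 24883 rows, and the 280 symbols on more than 1 row were left out.

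Tests were run on log2(FPKM + 1) with limma 3.58.1 (intensity trend) under R 4.3.3. The 13215 genes averaging 0.1 FPKM or more were tested. A pseudocount of 1 FPKM understates changes of low genes. A 24-h cosine was fitted to the 18 libraries of each condition (nominal P of 0.01, the study's threshold; its rhythm test, BIO_CYCLE, was not used here). Contrasts came from 1 fit over the 12 groups, and the overall difference from a fit with time point as a factor, with Benjamini-Hochberg adjustment over all tested genes (0.05). The scripts were tested on simulated data. Named genes were the 9 members, up to 3 further genes of smallest P per test from each of 2 lists of related genes, and genes most correlated with the members' mean. A few genes were left out of this account and are not reported here. Kmo and Nop56 were named as overlapping neighbours, and Suclg2 as the partner of Suclg1, after their values were seen. The members and lists were chosen with earlier results of these data known. Figures used matplotlib 3.10.9 under Python 3.11.15.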

Additional observations from a re-analysis of the deposited data

How the results depend on the processing

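For results in which a member had a nominal p under 0.05, alternatives gave 1304 values, of which 1256 kept their direction and their side of the threshold, 35 fell below it, 13 rose above it and 0 reversed. Many of these fits left out 1 library. For a contrast between other groups this changes only the spread, so the agreement is partly built in. The number of rhythmic members in control, 2 as reported, was 6 with median of ratios scaling, 4 with quantile normalization and, as an alternative added after seeing the data, 5 with median of ratios scaling and no control ZT12 replicate 2. Of all 13215 tested genes these settings called 2916, 2878 and 4052, against 2648 as reported. Leaving out 1 library at a time gave 2 to 4 in control and 6 to 7 in IH. The number called from ZT4 to ZT12 was 5 in IH with median of ratios scaling (3 as reported) and 0 in control with only the libraries compared (5 as reported). Of all genes, the IH setting called 3411 (3273 as reported) and the control setting 252 (3994 as reported). Leaving out 1 library gave 3 to 5 in control and 1 to 3 in IH. In IH against control, a nominal P of 0.01 called 1 member at ZT4 and 1 at ZT20, with 843 and 152 of all genes. Leaving out 1 library gave 0 to 1 at ZT4 and 0 to 2 at ZT12. At ZT12, leaving out control ZT12 replicate 1 called Cs and Ogdh. For most fits that left out 1 library, counts over all genes are not given here. Over all time points, leaving out the ZT12 libraries of both conditions, an alternative added after seeing the data, called 3 members (Cs, Idh3g and Mdh2). Of all 13215 tested genes it called 607, against 47 with every library, so the calls rose over all genes as well. The cause was not tested in these cases. Depth is unknown, so precision at low FPKM cannot be given.

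What the replicate numbers stand for is not given in the sources used here. Residuals of same-numbered libraries correlated by 0.05 on average (-0.18 to 0.29), with 6 of 18 pairs above 0.1. With 3 libraries per group this cannot settle whether the numbers pair the mice. With the replicate number as a block, 2 members were rhythmic in control and 6 in IH (Idh3g was lost), 5 and 3 were called from ZT4 to ZT12 in control and IH, 1 was called between IH and control over all time points, and 0 in the other tests. Of all 13215 tested genes, the block called 2412 rhythmic in control and 5110 in IH. From ZT4 to ZT12 it called 3966 in control and 3234 in IH, and 49 over all time points.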

Other observations

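Genes with a time course like that of Cs were looked up after its values were seen. Over the 36 libraries, those most correlated with Cs on log2(FPKM + 1) were Pstpip2 (r = 0.81), Prkaca, the catalytic subunit of protein kinase A (0.80), Ap1m1 (0.80), Echdc1 (0.79) and Lims1 (0.79). After median of ratios scaling Pstpip2 came first again (r = 0.79), and the other 4 were replaced by Wnt5a (0.75), Chrna4 (0.75), Acss2 (0.75) and Clcn6 (0.70). The libraries share time points and condition, so these values are a description.

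Ogdhl, a relative of Ogdh, was at 0.0378 FPKM or less in every library and was not among the tested genes.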
